A study of Mus musculus with 12 samples.

Results

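The effect of an Mtdh knockout (KO) on the liver that is common to mice without and with a mammary tumour was described over all 12 libraries of the series. The comparison set 6 KO livers against 6 wild-type (WT) livers with tumour state as an additive term, so that a fold change is the genotype effect averaged over both states. All libraries came from total RNA of whole liver, powdered after snap freezing, from age-matched female mice, 1 mouse each. KO_no_tumor livers were Mtdh KO and came from normal mice, WT_no_tumor livers were wild type from normal mice, KO_tumor livers were Mtdh KO from mice bearing a Py8119 mammary tumour, and WT_tumor livers were wild type from mice with that tumour, with 3 mice in each group. Py8119 is a line of mammary tumour cells from mice. The labels used here give neither the strain nor the age, and they do not say how the allele was made or whether the knockout was confined to some cells. In bulk liver, fewer cells of a type and less RNA per cell cannot be told apart.

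Mtdh encodes metadherin, also called AEG-1 or Lyric, a membrane protein of the endoplasmic reticulum and other compartments that has drawn attention in the growth and spread of tumours. Its best known partner is the nuclease Snd1, with which it takes part in RNA-binding complexes. In liver it has also been described as binding the retinoid X receptor (RXR), the nuclear receptor that pairs with PPARα, LXR and FXR to control genes of fatty acid oxidation, lipogenesis and bile acid synthesis. By its title the series concerns hepatic lipid metabolism and CD8 T cells under Mtdh loss in the host.

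Levels are normalized reads per gene. Fold changes are differences of log2(value + 1), KO minus WT, with a standard error (SE), which understates the change of low genes, and adjusted p-values come from limma over all genes tested. Estimated depths were 12722900 to 43024200 reads. A pair of KO libraries stood apart. KO_tumor replicate 1 had the lowest depth and listed 33.9% of genes at 0, and KO_no_tumor replicate 3 had 21.2% at 0 and 5.32% of its signal in small nuclear RNAs, whereas the other 10 libraries had 9.72% to 16.98% of genes at 0 and at most 2.05% in small nuclear RNAs. The main gene groups are therefore also given without these 2 libraries, called both libraries in what follows. Hepatocyte markers summed to 2375570 to 4265640 in KO and 2305300 to 3602480 in WT livers, with 6 of 6 markers detected, which fits the labelled tissue.

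Mtdh itself (ENSMUSG00000022255, chr15:34082840-34145770, mm39, plus strand) fell in KO livers. Its values were 584, 436 and 627 in KO_no_tumor livers and 4329.6, 5375 and 4973 in WT_no_tumor livers, and 1063, 380.0 and 323 in KO_tumor livers and 5290.2, 3954 and 5702 in WT_tumor livers. Every KO value lay below every WT value, in the mice without a tumour and in those with one alike. The mean was 569 ± 269 in KO and 4937 ± 669 in WT (SD, n = 6 each), so that KO livers kept 11.5% of the WT level. The fold change was −3.22 ± 0.24 (SE; limma adjusted p = 1.49e-05), with −3.16 without and −3.28 with a tumour. An exact two-sided permutation test of the genotype labels within tumour states gave p = 0.005, the smallest that 400 relabellings allow.

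**Figure D1:**
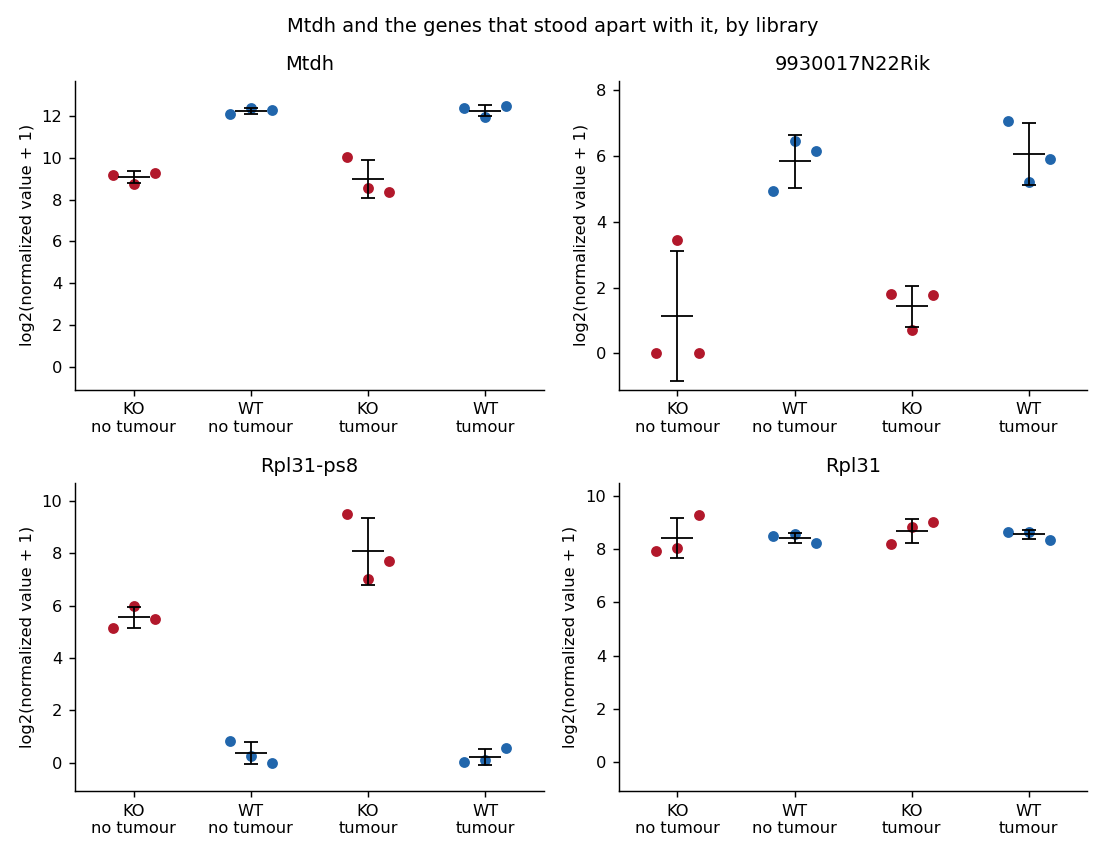
Level of Mtdh, the unnamed model 9930017N22Rik inside it, the pseudogene Rpl31-ps8 and its parent gene Rpl31 as log2(normalized value + 1) in each library, with KO in red and WT in blue (bars, mean ± SD of 3 livers). KO and WT livers do not overlap within either tumour state for the first 3 genes, and they overlap for Rpl31.

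A further gene with a wide gap between KO and WT, not past the threshold, lies inside Mtdh. The unnamed model 9930017N22Rik (chr15:34127090-34130834, mm39, plus strand) has the biotype TEC, a transcript to be experimentally checked in the annotation's wording, and runs on the same strand as Mtdh. In the GENCODE M21 annotation (GRCm38) it lies between exons, since 5 of 12 Mtdh transcripts span it and 0 have an exon that overlaps it. Its values were 0, 9.78 and 0 in KO_no_tumor livers and 29.4, 86.2 and 69.1 in WT_no_tumor livers, and 2.47, 0.650 and 2.41 in KO_tumor livers and 133, 36.00 and 58.7 in WT_tumor livers. Every KO library was below every WT library, and 2 of the 6 KO libraries were at 0. The fold change was −4.66 ± 0.74 (SE), but it did not pass the threshold (limma adjusted p = 0.0886). It passed with a pseudocount of 10 (limma adjusted p = 0.0243), with library weights (0.0402) and without KO_no_tumor replicate 2 (0.0204), and over all alternatives its adjusted p lay between 0.0204 and 0.522. Reads of this model and of the Mtdh intron around it cannot be told apart.

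Around Mtdh, 23 other genes within 2 Mb were tested, and 8 of them (34.8%) had an unadjusted p under 0.05, 2 higher and 6 lower in KO, against 9.91% of all genes tested (829 higher, 4.77%, and 893 lower, 5.14%) and 9.94% of the 624 genes on the rest of the chromosome. None of the 8 passed the adjusted threshold. Of the 6 lower, 1 was 9930017N22Rik, which lies inside Mtdh and so is not a separate neighbour. Higher in KO were Tspyl5, of the TSPY-like family, at 261 ± 69.4 in KO and 151 ± 25.8 in WT (0.77 ± 0.24), and Rida, an enzyme that clears reactive imines (0.56 ± 0.24). The 6 KO libraries did not overlap the 6 WT libraries for Tspyl5, which lies 428 kb upstream of Mtdh between gene middles. Lower in KO were Cpq, a secreted carboxypeptidase (−0.31 ± 0.13), the lipid transfer gene Vps13b (−0.41 ± 0.16), Erich5 (−1.92 ± 0.81) and the unnamed models Gm48965 (−2.48 ± 0.81) and Gm48961 (−2.13 ± 0.99), of which the last 3 averaged at most 24.5 in either genotype. The nearest tested protein-coding neighbour downstream, Laptm4b, was at 0.26 ± 0.21.

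**Figure D2:**
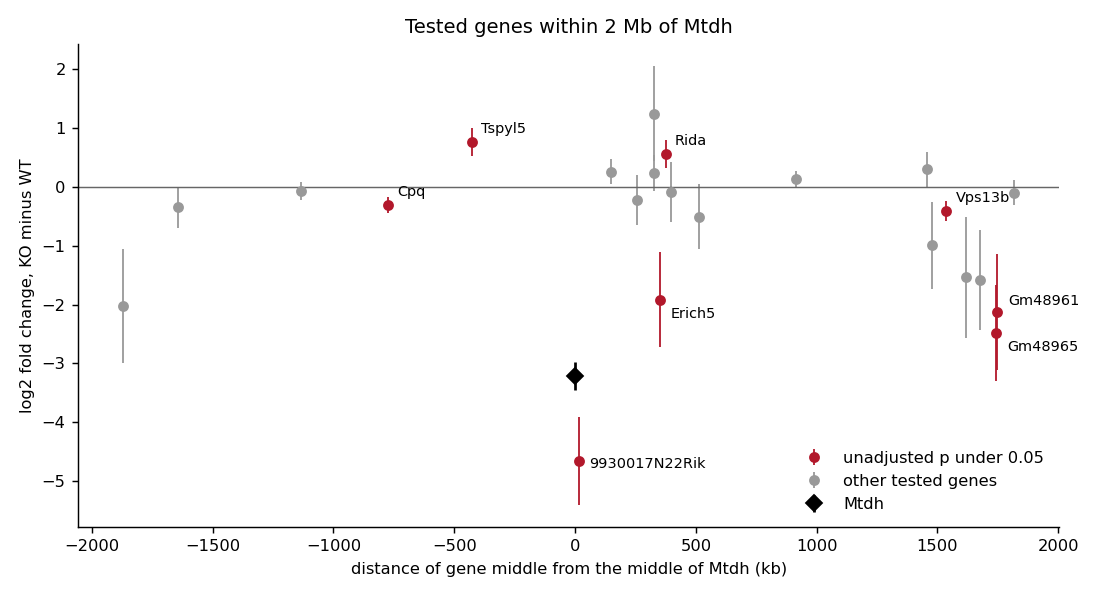
Log2 fold change (KO minus WT, bars are the SE) of the 23 tested genes within 2 Mb of Mtdh against the distance between gene middles in kb, with Mtdh as a black diamond. The 8 genes in red have an unadjusted p under 0.05, and 9930017N22Rik lies below Mtdh at −4.66.

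The other called gene was higher in KO. Rpl31-ps8 (ENSMUSG00000067870, chr15:90648482-90648859, mm39, minus strand) is a processed pseudogene, a copy of the spliced transcript of Rpl31, which encodes a protein of the large ribosomal subunit. It lies on the chromosome of Mtdh, but outside the 2 Mb window. The GENCODE M21 sequence of the copy is 378 bases long and is found whole, with 0 bases differing, in 3 of 6 Rpl31 transcripts, so it is shown to make plain that reads from the copy and from the parent coding sequence cannot be told apart by their letters. Bases 1 to 300 of the copy, which lies at chr15:90764279-90764656 of GRCm38 on the minus strand, are printed 5′ to 3′, and the capitals mark the start codon that the copy retains.
Rpl31-ps8: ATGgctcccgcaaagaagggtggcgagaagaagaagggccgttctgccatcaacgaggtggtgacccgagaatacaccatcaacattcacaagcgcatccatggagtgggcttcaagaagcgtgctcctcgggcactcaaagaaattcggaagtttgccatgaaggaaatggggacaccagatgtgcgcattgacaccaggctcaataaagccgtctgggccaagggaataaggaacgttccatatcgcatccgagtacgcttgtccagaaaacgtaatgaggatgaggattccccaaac

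Rpl31-ps8 had 34.9, 62.1 and 44.7 in KO_no_tumor livers and 0.769, 0.201 and 1.23e-09 in WT_no_tumor livers. With a tumour it had 726, 129.8 and 208 in KO_tumor livers and 0.00673, 0.0647 and 0.486 in WT_tumor livers. All 6 KO libraries were at least 34.9 and all 6 WT libraries below 1, under the value of 1 read in each. The fold change was 6.52 ± 0.71 (SE; limma adjusted p = 0.00142), a size that depends on the pseudocount since the WT level is near 0; it was 3.62 with a pseudocount of 10, still past the threshold. Of 17380 genes tested, this was the only one with every WT library at or below 1 and every KO library at or above 10, and 0 genes had the opposite pattern. Values below that of 1 read show that reads were shared out in fractions between features.

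The parent gene Rpl31 had 243, 263 and 623 in KO_no_tumor livers and 356, 375 and 295 in WT_no_tumor livers, and 289, 456 and 520.5 in KO_tumor livers and 400.5, 402 and 325 in WT_tumor livers. Its groups overlapped, and its fold change was 0.07 ± 0.24 (SE; limma adjusted p = 0.927). Rpl31-ps8 made up 6.69% to 71.5% of the sum of both genes in KO and at most 0.216% in WT. The other listed copy, Rpl31-ps9, differs from Rpl31-ps8 by 2 bases and stayed at or below 12.7 in every library. Since Rpl31-ps8 can take reads of its parent, its level is uncertain, and whether the copy itself is transcribed was not tested.

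Beyond Mtdh and Rpl31-ps8, 0 genes passed the adjusted threshold, which left 1 gene higher (0.00575% of genes tested) and 1 lower (0.00575%). Without adjustment, 829 genes (4.77%) were higher and 893 (5.14%) lower with p under 0.05. After 9930017N22Rik the smallest limma adjusted p was 0.470. The genotype by tumour interaction called 0 of 17380 genes (0%), with 816 at an unadjusted p under 0.05. It called 1 gene, the collagen Col3a1, with library weights alone and 1, the hepcidin gene Hamp2, without WT_tumor replicate 2 alone. In the main fit no difference in the knockout effect between tumour states was detectable for any gene at this number of livers. The median SE of a fold change was 0.35. The median fold change of all genes was −0.08, and 43.3% of genes were positive.

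The fold changes of both tumour states come from different livers and were only weakly alike. Across the 12267 genes with a mean of at least 50, Pearson's r between the fold changes without and with a tumour was 0.14 and Spearman's rho 0.18, as a description across genes, which are not independent replicates. KO and WT libraries did not overlap in either state, and in the same direction, for 197 genes, 79 higher in KO (0.455% of genes tested) and 118 lower in KO (0.679%). For 60 genes they did not overlap in either state but in opposite directions. State by state, 1378 genes did not overlap without a tumour and 3113 with one.

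Among the 79 and 118 genes, those with a mean of at least 50, an annotated name and the smallest unadjusted p are given as values, 11 in each direction. None passed the adjusted threshold (limma adjusted p = 0.47 for each). On the higher side, a pair encode subunits of respiratory complex I. Ndufa8 had 823, 848 and 799.7 in KO_no_tumor livers and 544, 505 and 608 in WT_no_tumor livers, and 1408, 857 and 843 in KO_tumor livers and 604, 618 and 563 in WT_tumor livers, a fold change of 0.67 ± 0.15 (SE). Ndufv1, which encodes the subunit of complex I that binds NADH, had a lowest, median and highest value of 667, 835 and 1465 in KO and 411, 531 and 742 in WT (0.73 ± 0.19). For Ndufa8 every KO liver lay above every WT liver, while for Ndufv1 the separation held within each tumour state but not across them. Fth1, the heavy chain of the iron store ferritin, averaged 14886 ± 6681 in KO and 6765 ± 1666 in WT (SD, n = 6 each; 1.06 ± 0.26). Rpl17, of the large ribosomal subunit, averaged 567 ± 292 in KO and 237 ± 139.7 in WT (1.27 ± 0.28), and Mrpl23-ps1, a pseudogene named after a mitochondrial ribosomal protein gene, 278 ± 119 in KO and 136 ± 41.9 in WT (0.98 ± 0.25). Reads of Fth1, Rpl17 and Mrpl23-ps1 may be shared with copies, which makes their split uncertain.

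The other higher genes are mostly enzymes and secreted proteins of the hepatocyte. Mup2, of the major urinary proteins that mouse liver secretes, had a lowest, median and highest value of 98.1, 218 and 340.0 in KO and 26.6, 35.1 and 153 in WT (1.93 ± 0.44), and its reads may be shared with the near-identical members of the Mup cluster. Acsf2, an acyl-CoA synthetase, averaged 5231 ± 780.5 in KO and 3589 ± 663 in WT (0.55 ± 0.13). Mtarc2, a molybdenum enzyme of mitochondria, was at 0.75 ± 0.18, Dhrs7, a short-chain dehydrogenase, at 0.78 ± 0.20, and Tsku, a secreted leucine-rich protein, at 0.70 ± 0.17. Slc66a2, of a family of lysosomal and endosomal membrane proteins, was at 0.73 ± 0.16. The choice of genes without overlap fixes a positive fold change in both states for all 11. It was larger with a tumour in each case, although the interaction was called for none of them.

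On the lower side, Aph1b, a subunit of the γ-secretase protease, had 134, 212 and 215 in KO_no_tumor livers and 270.1, 379.5 and 405 in WT_no_tumor livers, and 274, 241 and 227 in KO_tumor livers and 395, 697 and 682 in WT_tumor livers, a fold change of −1.07 ± 0.22 (SE). Within each tumour state every KO liver lay below every WT liver. Car13, a cytosolic carbonic anhydrase, had the largest difference of the 11 and a low level, with 17.96, 18.8 and 17.1 in KO_no_tumor livers and 72.3, 76.7 and 115 in WT_no_tumor livers, and 2.47, 55.9 and 9.23 in KO_tumor livers and 131, 61.2 and 189 in WT_tumor livers (−2.70 ± 0.63). It was lower in every KO liver than in any WT liver. Both Mbnl2 (−0.68 ± 0.17) and Mbnl3 (−0.72 ± 0.20) encode muscleblind proteins, which regulate splicing. Anxa4, a calcium-dependent phospholipid-binding annexin, averaged 2566 ± 626 in KO and 4105 ± 617 in WT (−0.70 ± 0.16). Ccng1, the p53-induced cyclin G1, averaged 3023 ± 765 in KO and 4642 ± 1245 in WT (−0.62 ± 0.16). Nudcd1, which also lies on chromosome 15, was at −0.62 ± 0.15, the cell polarity gene Prickle2 at −0.97 ± 0.26, the adhesion scaffold gene Nedd9 at −0.81 ± 0.22, Ccdc43 at −0.94 ± 0.26 and Lrrfip1, a nucleic acid-binding protein gene, at −0.54 ± 0.15.

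**Figure D3:**
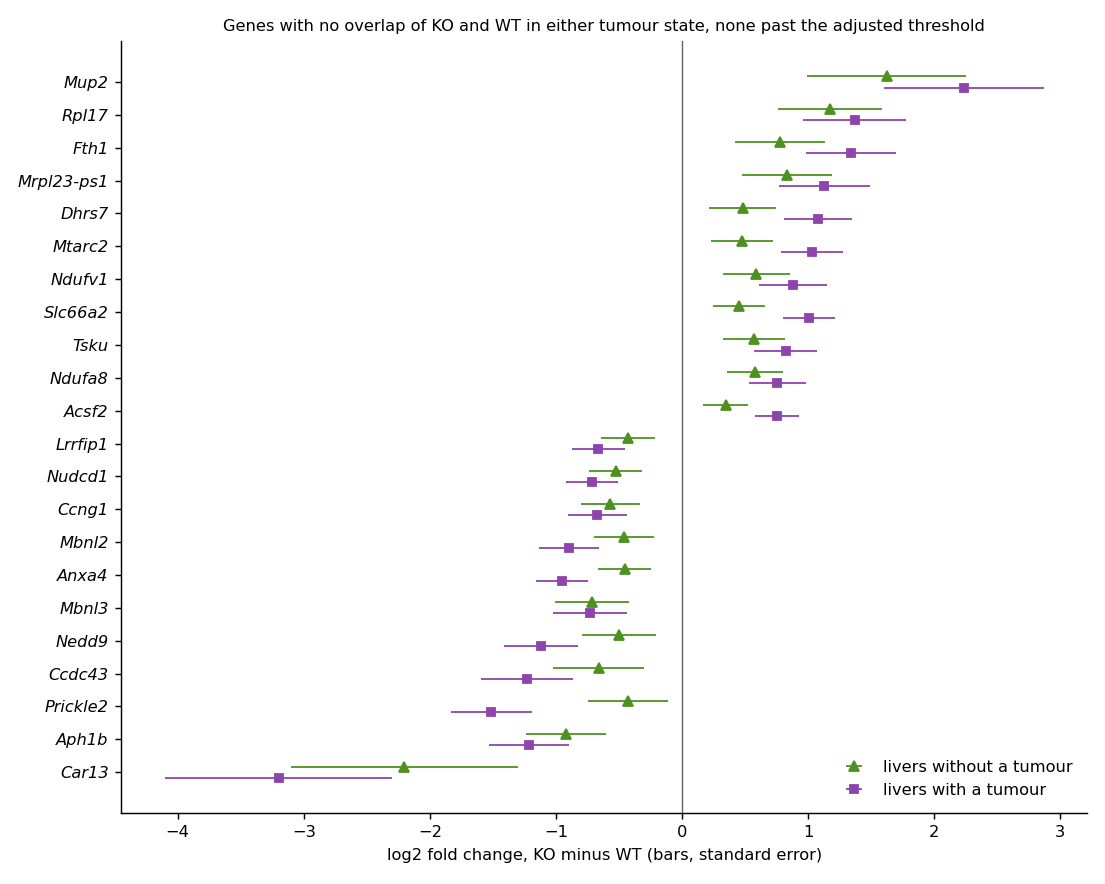
Log2 fold change (KO minus WT, bars are the SE) without a tumour (green triangles) and with a tumour (purple squares) for the 22 named genes whose KO and WT livers did not overlap in either state, a choice that fixes the common sign. Car13 and Mup2 have the widest fold changes in both states, and no gene passed the adjusted threshold.

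Gene lists were read by their counts and medians beside all genes tested. No list had a called member, so the members named below are given as values. Unless another adjusted p is printed beside it, each had an unadjusted p under 0.05 and a limma adjusted p of 0.47 to 0.501. By the share of its members under that p, the list farthest from all genes was that of nuclear genes of oxidative phosphorylation, the respiratory chain and ATP synthase. Of its 33 tested members 30 were positive, the median was 0.52 against −0.08 for all genes, and 24 members (72.7%) had an unadjusted p under 0.05 and were higher in KO, against 4.77% of all genes, with 0 lower. They came from every complex of the chain: Ndufb3 (0.78 ± 0.21) and Ndufs3 (0.81 ± 0.24) of complex I, Sdhc (0.87 ± 0.28) of complex II, Uqcrc1 (0.51 ± 0.15) of complex III, Cox5b (0.72 ± 0.21) of complex IV, and Atp5a1 (0.72 ± 0.18) and Atp5b (0.71 ± 0.20) of the ATP synthase. Atp5a1 averaged 8528 ± 2236 in KO and 5167 ± 1222 in WT (SD, n = 6 each). Of these, Ndufb3, Ndufs3, Sdhc, Uqcrc1, Cox5b and Atp5b were chosen after their values were seen, 1 or 2 for a complex.

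The list's mean deviation from the average library was −0.0032, 0.11 and 0.18 in KO_no_tumor livers and 0.01, −0.18 and −0.16 in WT_no_tumor livers, and 0.64, 0.28 and 0.26 in KO_tumor livers and −0.47, −0.08 and −0.60 in WT_tumor livers (log2). The groups overlapped without a tumour and not with one, and KO_tumor replicate 1 was the highest. The list median was 0.22 without and 0.83 with a tumour. Without both libraries that stood apart there were 31 of 33 positive, a median of 0.46 and 18 members under an unadjusted p of 0.05 and higher in KO, and with each library left out in turn the median was 0.44 to 0.63. The 13 mitochondrially encoded subunits had a median of 0.04 (−0.23 without and 0.31 with a tumour), with 7 of 13 positive, or 1 of 13 without both libraries, and 0 members under an unadjusted p of 0.05 in either direction.

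Cytosolic ribosomal protein genes, a list chosen after the values were seen, were similar: 71 of 78 were positive, the median was 0.44, and 29 (37.2%) had an unadjusted p under 0.05 and were higher in KO, with 0 lower. Among them were Rpl27 (1.28 ± 0.32), Rpl7a (0.77 ± 0.21) and Rps28 (1.15 ± 0.39). The list median was 0.19 without and 0.69 with a tumour. Its deviation in KO_tumor livers was 1.02, 0.33 and 0.62 and in WT_tumor livers −0.17, 0.31 and −0.25, so WT_tumor replicate 2 was close to the lowest KO_tumor liver. Without both libraries that stood apart there were 69 of 78 positive, a median of 0.28 and 15 members under an unadjusted p of 0.05 and higher in KO. With single libraries left out the 29 were 18 without KO_tumor replicate 1, 16 without WT_tumor replicate 1 and 18 without WT_tumor replicate 3, and the median was 0.29 without KO_tumor replicate 1.

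Transcript length moved with these differences. Among protein-coding genes with a mean of at least 50, the median fold change in 5 equal classes of transcript length, shortest first, was 0.19, 0.07, −0.0032, −0.06 and −0.13, and the share with an unadjusted p under 0.05 and higher in KO was 14.7% in the shortest class and 1.67% in the longest. The shortest class deviated by 0.46, 0.09 and 0.25 in KO_tumor livers and −0.09, 0.21 and −0.23 in WT_tumor livers, and by −0.06, 0.01 and 0.11 in KO_no_tumor livers and −0.10, −0.11 and −0.08 in WT_no_tumor livers. KO_tumor replicate 1 was the highest and WT_tumor replicate 2 stood with the KO_tumor livers, as it did for the ribosomal genes. In the shortest class were 24 of the 33 oxidative phosphorylation genes, with a median of 0.61 and 17 under the unadjusted p, and 66 ribosomal genes, with a median of 0.44 and 26 under it, against a median of 0.19 for that whole class. The 9 longer oxidative phosphorylation genes had a median of 0.50 with 7 under the unadjusted p, against a median of −0.04 and 4.71% in the other 4 classes. Lists taken up below also split by length. Medians in the shortest class and in the other 4 were 0.61 and 0.0053 for lipid droplet, uptake and lipolysis genes. They were 0.68 and 0.11 for NRF2 target genes, 0.63 and 0.23 for bile acid genes, and 0.48 and 0.12 for RXR and partner receptors. Amino acid genes had 0.26 and 0.25, and lipogenesis genes 0.72 and 0.50. The part of transcript length in these results was not tested.

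**Figure D4:**
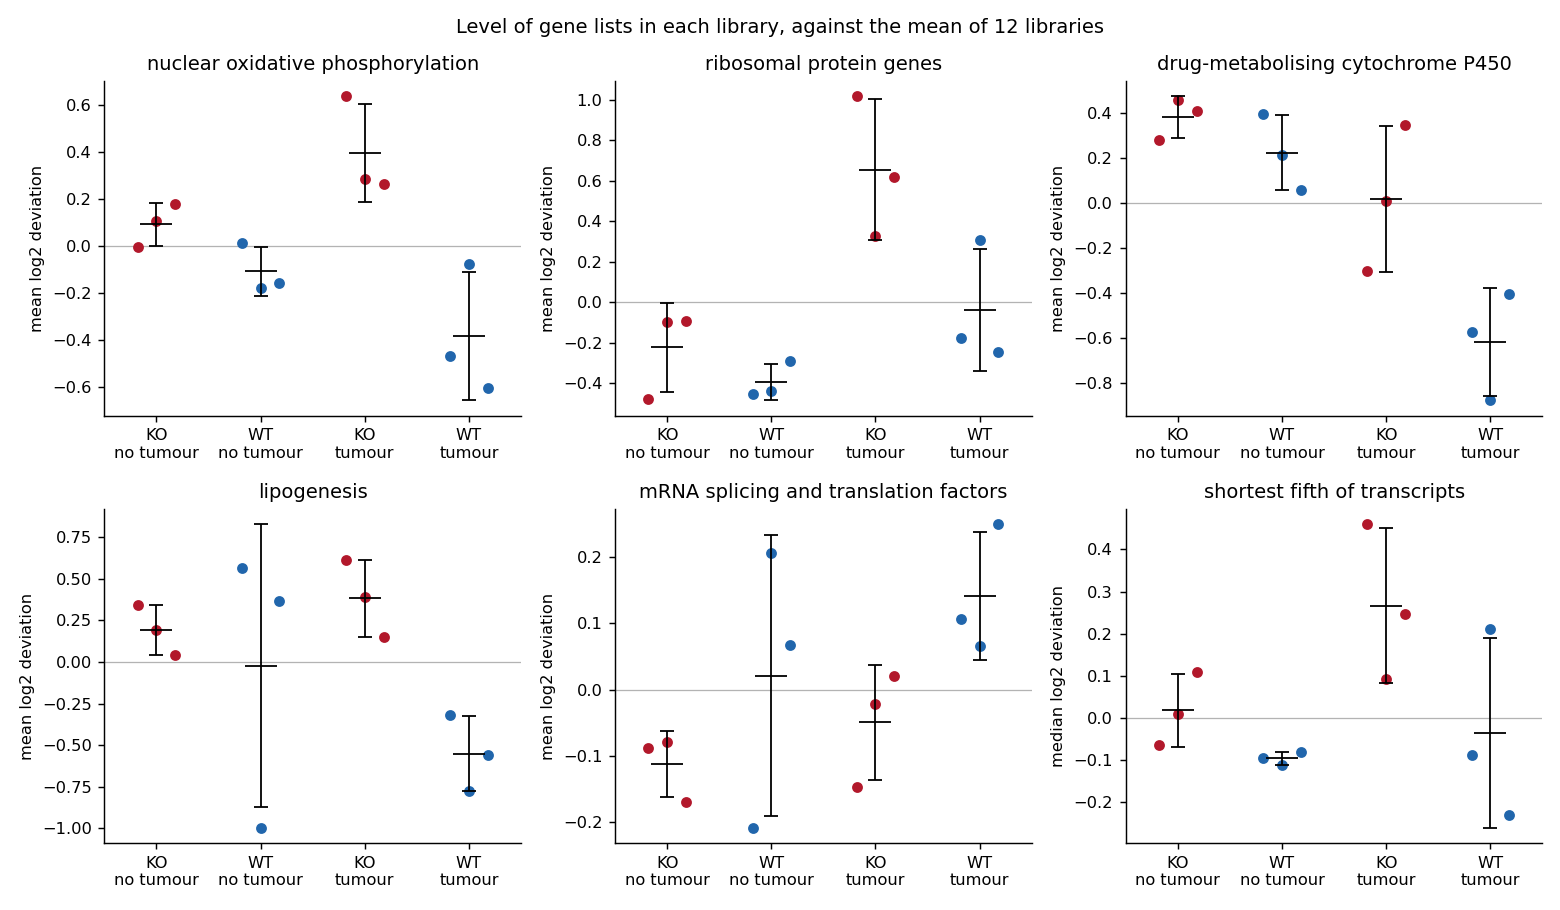
Mean log2 deviation of each list from its average over the 12 libraries, and the median deviation of the shortest transcript class, in each library (KO in red, WT in blue; bars, mean ± SD of 3 livers). KO_tumor livers lie above WT_tumor livers for oxidative phosphorylation, ribosomal protein genes, cytochrome P450 and lipogenesis, and the shortest transcripts are also high in KO_tumor replicate 1.

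Drug-metabolising cytochrome P450 genes, which oxidise drugs, steroids and fatty acids in the endoplasmic reticulum, had 28 of 35 members positive, a median of 0.45 and 15 (42.9%) under an unadjusted p of 0.05 and higher in KO, with 0 lower. Cyp2b13 averaged 2768 ± 910.3 in KO and 1339.7 ± 529.9 in WT (SD, n = 6 each; 1.07 ± 0.27) and Cyp2c38 5328 ± 1229.6 in KO and 3355 ± 768 in WT (0.67 ± 0.17). The list median was 0.27 without and 0.77 with a tumour, and without both libraries that stood apart there were 31 of 35 positive, a median of 0.43 and 14 members under an unadjusted p of 0.05 and higher in KO. The list was at −0.30, 0.01 and 0.34 in KO_tumor livers and −0.57, −0.88 and −0.40 in WT_tumor livers, with the lowest KO_tumor value in replicate 1. Pericentral genes, expressed around the central vein, had 14 of 18 positive, a median of 0.37 and 7 under the unadjusted p and higher, and 18 of 18 positive without both libraries. Cyp1a2 was at 0.62 ± 0.19 and Notum, a secreted Wnt inhibitor, at 0.82 ± 0.25. Phase II enzymes, which conjugate drugs and steroids, had 29 of 35 positive and a median of 0.49 (0.20 without and 0.66 with a tumour). Of them 6 (17.1%, against 4.77% of all genes) were under the unadjusted p and higher. The count was 10 without WT_tumor replicate 2 and 5 without KO_no_tumor replicate 3. The list had without both libraries 30 of 35 positive, a median of 0.29 and 5 higher under the unadjusted p. Among the 6 were the glutathione transferases Gstt1 (0.70 ± 0.17) and Gstm6 (0.97 ± 0.30). In the shortest transcript class 3 of 18 phase II genes were higher under the unadjusted p, near the 14.7% of that whole class. Of the 14 longer ones 3 were higher, against 4.71% in the other 4 classes.

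Genes of lipid metabolism leaned to higher values in KO on both the synthetic and the oxidative side. For lipogenesis 22 of 24 were positive with a median of 0.50, and 8 were under the unadjusted p and higher, with 0 lower. Me1, which makes NADPH for fatty acid synthesis, had 48758, 60978 and 50295 in KO_no_tumor livers and 60109.9, 19270.0 and 60930.2 in WT_no_tumor livers, and 44877, 82497 and 45145 in KO_tumor livers and 9838, 16315 and 9384 in WT_tumor livers (1.31 ± 0.37). Its KO and WT values overlapped without a tumour and lay far apart with one. Pnpla3, a lipase gene induced with lipogenesis, averaged 341 ± 61.4 in KO and 161 ± 139 in WT (1.46 ± 0.42). Fatty acid synthase, Fasn, was at 0.96 ± 0.49 (limma adjusted p = 0.527), with 0.52 without and 1.39 with a tumour, and its WT_no_tumor livers differed widely, at 148513, 17861 and 156046. Its regulator Srebf1 was at 0.40 ± 0.28 (limma adjusted p = 0.605). The lipogenesis median was 0.22 without and 0.86 with a tumour, and WT_no_tumor replicate 2 was the lowest library at −0.999 on the list. It had without both libraries 21 of 24 positive, a median of 0.45 and 8 higher under the unadjusted p. The count of 8 was 16 without WT_no_tumor replicate 1, 5 without WT_no_tumor replicate 2, 13 without WT_no_tumor replicate 3 and 5 without WT_tumor replicate 2.

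For fatty acid oxidation and ketogenesis 23 of 27 were positive with a median of 0.27, but 0.06 without and 0.49 with a tumour. Of these genes 10 were under the unadjusted p and higher, a count that was 6 without KO_tumor replicate 2, 5 without WT_tumor replicate 1 and 4 without WT_tumor replicate 3. There were without both libraries 21 of 27 positive, a median of 0.33 and 4 higher under the unadjusted p. Cpt2, of the mitochondrial carnitine shuttle, averaged 2327 ± 451 in KO and 1703 ± 601 in WT (0.52 ± 0.18). Cpt1a, the entry step of that shuttle, was at −0.10 ± 0.25 (limma adjusted p = 0.895) with overlapping groups. PPARα targets had 22 of 25 positive with a median of 0.46, but 0.03 without and 0.92 with a tumour, and 7 were under the unadjusted p and higher, or 11 without KO_no_tumor replicate 1 and 14 without WT_no_tumor replicate 2. There were without both libraries 22 of 25 positive, a median of 0.39 and 5 higher and 1 lower under the unadjusted p. Acot3, an acyl-CoA thioesterase of peroxisomes, was at 1.43 ± 0.45, with 0.18 without and 2.69 with a tumour. Ppara itself was at 0.12 ± 0.22 (limma adjusted p = 0.845).

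Bile acid genes were among the lists with alike medians in both states, at 0.31 without and 0.30 with a tumour. Of 25 members 21 were positive, and 9 were under the unadjusted p and higher, with 0 lower. There were without both libraries 20 of 25 positive, a median of 0.29 and 9 higher and 1 lower under the unadjusted p. Slc27a5, which activates bile acids, averaged 11401 ± 1871 in KO and 7967 ± 1166 in WT (0.51 ± 0.14). Nr1h4, which encodes the bile acid receptor FXR, had 1614, 1955 and 2158 in KO_no_tumor livers and 1541, 1603 and 1179 in WT_no_tumor livers, and 2236, 1929 and 3028 in KO_tumor livers and 1174, 1867 and 1024 in WT_tumor livers (0.63 ± 0.18). KO and WT livers did not overlap for it within either state. Cyp7a1, the gatekeeper of bile acid formation from cholesterol, was at −0.38 ± 0.33 (limma adjusted p = 0.671), the opposite sign to most of its list. Cholesterol synthesis genes differed, with 13 of 25 positive, a median of 0.03 and 3 under the unadjusted p and lower, or without both libraries 7 of 25 positive, a median of −0.11 and 3 lower under the unadjusted p. The 3 include Hmgcs1 (−0.61 ± 0.22) and Idi1 (−0.48 ± 0.21).

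Lipoprotein genes had 19 of 23 positive, a median of 0.34 and 8 under the unadjusted p and higher, with medians of 0.25 without and 0.57 with a tumour. They had without both libraries 18 of 23 positive, a median of 0.31 and 8 higher under the unadjusted p. Apoc1 was at 0.90 ± 0.23 and Apoa2, a main protein of high-density lipoprotein, at 1.11 ± 0.30. Lipid droplet, uptake and lipolysis genes had 18 of 28 positive with a median of 0.25 (0.09 without and 0.41 with a tumour) and 10 under the unadjusted p and higher, or without both libraries 17 of 28 positive, a median of 0.19 and 6 higher and 1 lower under the unadjusted p. Amino acid and urea cycle genes had 28 of 38 positive with a median of 0.24, 0.22 without and 0.25 with a tumour, and 9 under the unadjusted p and higher. They had without both libraries 28 of 38 positive, a median of 0.15 and 6 higher under the unadjusted p, and the median was 0.15 without WT_no_tumor replicate 3. The methyltransferase gene Gnmt was at 0.75 ± 0.19 and Nags, which makes the activator of the urea cycle, at 0.80 ± 0.24. Glucose and fasting genes had a median of 0.11 with 17 of 31 positive, and without both libraries 15 of 31 positive, a median of −0.01 and 5 higher and 1 lower under the unadjusted p, so no direction was read for the list. The glycogen enzymes Pygl (0.56 ± 0.16) and Gys2 (0.56 ± 0.17) were among its 4 under the unadjusted p. NRF2 target genes had 20 of 30 positive with a median of 0.39 and 8 under the unadjusted p and higher, Fth1 among them, or 5 without KO_no_tumor replicate 3, 4 without KO_tumor replicate 1, 4 without WT_tumor replicate 1 and 5 without WT_tumor replicate 3. The median was 0.14 without and 0.42 with a tumour, and there were without both libraries 19 of 30 positive, a median of 0.16 and 5 higher under the unadjusted p. It was 0.25 without KO_no_tumor replicate 3, 0.22 without WT_no_tumor replicate 1, 0.24 without WT_no_tumor replicate 2 and 0.22 without WT_tumor replicate 1.

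RXR and its partner receptors had 25 of 31 positive with a small median of 0.18, and 4 under the unadjusted p and higher, or without both libraries 23 of 31 positive, a median of 0.17 and 3 higher under the unadjusted p. Rxra, the main RXR of liver, was at 0.07 ± 0.17 (limma adjusted p = 0.886), with 5633 ± 992 in KO and 5394 ± 1207 in WT. Rxrb averaged 543 ± 78.2 in KO and 374 ± 54.5 in WT (0.54 ± 0.17). Retinoid storage and breakdown genes had 12 of 16 positive with a median of 0.34, 0.02 without and 0.65 with a tumour, with 5 higher and 1 lower under the unadjusted p, and 3 without WT_tumor replicate 3 for the higher ones. They had without both libraries 10 of 16 positive, a median of 0.24 and 4 higher and 0 lower under the unadjusted p, and the median was 0.18 without KO_tumor replicate 1. Rbp4, the retinol carrier of plasma, was at 0.72 ± 0.19, and Rdh16, a retinol dehydrogenase, at 1.07 ± 0.33. The 1 lower member was Lrat at −0.50 ± 0.21, with −0.48 without and −0.52 with a tumour. Partners of Mtdh and members of the RNA-induced silencing complex had 10 of 20 positive and a median of 0.01, over −0.08 (without KO_no_tumor replicate 2) to 0.10 (without KO_no_tumor replicate 1) with single libraries left out. Snd1 was at 0.26 ± 0.18 (limma adjusted p = 0.603), with KO_tumor replicate 1 at 4709.6 and the 5 other KO livers at 1986 to 2484. In the circadian clock list 13 of 20 were positive with a median of 0.10, and single libraries left out moved it over −0.07 (without WT_no_tumor replicate 3) to 0.30 (without WT_tumor replicate 1), so no direction was read. The repressor Nr1d1 was at 1.08 ± 0.32. Growth hormone axis and major urinary protein genes had 17 of 28 positive with a median of 0.19, but −0.10 without and 0.31 with a tumour, a change of sign between the states. The median was 0.13 without WT_no_tumor replicate 3, 0.12 without KO_tumor replicate 1, 0.13 without KO_tumor replicate 3 and 0.08 without WT_tumor replicate 3, and there were without both libraries 18 of 28 positive, a median of 0.15 and 6 higher and 4 lower under the unadjusted p. The hormone target Igf1, a secreted growth factor, averaged 30244 ± 13608 in KO and 47708 ± 13791 in WT (−0.71 ± 0.21), lower in KO without overlap in either state.

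Fewer lists leaned to lower values in KO, and 43.3% of all genes were positive. Splicing and translation factors had 25 of 30 negative with a median of −0.18, −0.17 without and −0.19 with a tumour, and 5 under the unadjusted p and lower (16.7%, against 5.14% of all genes), with 0 higher. Srsf1, a splicing factor rich in serine and arginine, averaged 4891 ± 1504 in KO and 7394 ± 1538 in WT (−0.63 ± 0.16), and Srsf3, of the same family, was at −0.48 ± 0.17. The list was at −0.09, −0.08 and −0.17 in KO_no_tumor livers and −0.21, 0.21 and 0.07 in WT_no_tumor livers, where WT replicate 1 was the lowest, and at −0.15, −0.02 and 0.02 in KO_tumor livers and 0.11, 0.07 and 0.25 in WT_tumor livers, without overlap. The count of 5 was 10 without WT_no_tumor replicate 1, 3 without WT_no_tumor replicate 2, 2 without KO_tumor replicate 1 and 3 without WT_tumor replicate 3. The list had without both libraries 6 of 30 positive, a median of −0.13 and 3 lower under the unadjusted p, and its median was −0.10 without WT_no_tumor replicate 2. Its transcripts are longer than those of the respiratory chain, with a median of 3286 against 1661 bases.

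Genes of endoplasmic reticulum stress had 21 of 27 negative with a median of −0.18, and 5 under the unadjusted p and lower, such as the chaperones Creld2 (−1.04 ± 0.32) and Hsp90b1 (−0.42 ± 0.16), with 1 higher. The 5 were 3 without KO_tumor replicate 3 and 3 without WT_tumor replicate 3, and the median was −0.02 without and −0.38 with a tumour. They had without both libraries 5 of 27 positive, a median of −0.21 and 0 higher and 3 lower under the unadjusted p. Cell cycle genes had 23 of 30 negative with a median of −0.40, but 0.11 without and −0.75 with a tumour. It was −0.13 without KO_tumor replicate 1, −0.18 without WT_tumor replicate 1 and −0.25 without WT_tumor replicate 3, and the list had without both libraries 9 of 30 positive, a median of −0.35 and 8 lower under the unadjusted p, against 3 lower over all libraries. The cyclin-dependent kinase inhibitor Cdkn1a, a p53 target like Ccng1, averaged 60.5 ± 33.4 in KO and 175 ± 119.7 in WT (−1.30 ± 0.47). Immediate early genes stood near all genes, with 37.04% of 27 positive and a median of −0.24, which was −0.10 without KO_no_tumor replicate 2, −0.02 without WT_no_tumor replicate 2, −0.11 without KO_tumor replicate 1 and −0.02 without WT_tumor replicate 1. There were without both libraries 7 of 27 positive, a median of −0.25 and 2 lower under the unadjusted p. In this list Fosl2 was at −0.69 ± 0.27 and Klf6 at −0.43 ± 0.17. NF-κB targets and chemokines also stood near all genes, with 39.3% of 28 positive and a median of −0.15, but 0.15 without and −0.28 with a tumour. It was −0.03 without KO_tumor replicate 1 and −0.05 without WT_tumor replicate 2, and there were without both libraries 10 of 28 positive, a median of −0.15 and 5 lower under the unadjusted p. In this list 2 members were lower under the unadjusted p, the neutrophil chemokine Cxcl1 at −1.55 ± 0.59 and Tnfaip3 at −0.78 ± 0.36. Heat shock genes had 14 of 21 positive with a median of 0.07, and single libraries left out moved it over −0.02 (without KO_tumor replicate 1) to 0.14 (without WT_tumor replicate 2). In that list 1 member was higher and 2 were lower under the unadjusted p. The higher was Trap1 at 0.35 ± 0.16, and the lower were Chordc1 at −0.42 ± 0.15 and Hsph1 at −0.50 ± 0.18.

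Antigen presentation genes had 21 of 22 positive with a median of 0.59, and 5 under the unadjusted p and higher, such as the class I genes H2-T23 (0.90 ± 0.24) and H2-K1 (0.76 ± 0.24). Interferon-stimulated genes had 30 of 39 positive with a median of 0.34, and 6 under the unadjusted p and higher. Both were much smaller without KO_no_tumor replicate 3. The interferon list was at −0.53, −0.02 and 1.63 in KO_no_tumor livers and −0.58, −0.15 and −0.07 in WT_no_tumor livers. Without replicate 3 of KO_no_tumor the medians were 0.29 for antigen presentation and 0.0056 for interferon-stimulated genes. Without both libraries that stood apart, antigen presentation had a median of 0.14 with 2 members higher and 0 lower under the unadjusted p. Interferon-stimulated genes then had a median of 0.02 with 0 members higher and 2 lower. The count of 5 was 10 without KO_no_tumor replicate 1, 3 without KO_no_tumor replicate 3, 3 without KO_tumor replicate 1, 9 without KO_tumor replicate 2, 3 without WT_tumor replicate 1 and 10 without WT_tumor replicate 2 for antigen presentation. For the interferon list the 6 were 12 without KO_no_tumor replicate 1, 2 without KO_no_tumor replicate 3, 2 without KO_tumor replicate 1, 2 without WT_tumor replicate 1 and 3 without WT_tumor replicate 3. Class I genes are near-identical in sequence, so their reads may be shared.

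Markers of other cells in the liver gave no called gene. T and NK cell markers had 13 of 26 positive with a median of 0.02, and single libraries left out moved it over −0.18 (without KO_no_tumor replicate 3) to 0.38 (without KO_no_tumor replicate 1). Of these markers 1 (3.85%, against 4.77% of all genes) was higher under the unadjusted p, Cxcr6 at 1.25 ± 0.51, and 0 were lower. Cd8a, the chain that marks cytotoxic T cells, had 31.2, 40.6 and 48.7 in KO_no_tumor livers and 0, 42.05 and 26.5 in WT_no_tumor livers, and 81.4, 22.1 and 11.5 in KO_tumor livers and 43.2, 48.97 and 81.9 in WT_tumor livers (0.48 ± 0.91, limma adjusted p = 0.852), with overlap in both states. The summed T and NK markers ranged over 132 to 449 in KO and 114 to 399.6 in WT, with 10 of 10 markers in the table and Cd3d under 10 in every library. B and plasma cell markers had 15 of 18 positive with a median of 0.59 and 0 members under the unadjusted p, but 1.01 without and 0.02 with a tumour, and 1.03 without WT_tumor replicate 2. Kupffer cell markers had a median of 0.03, over −0.05 (without KO_no_tumor replicate 3) to 0.15 (without WT_no_tumor replicate 3) with single libraries left out. Neutrophil markers had 9 of 11 negative with a median of −1.29, but 0.45 without and −3.14 with a tumour, and −0.67 without KO_tumor replicate 1, −0.82 without KO_tumor replicate 2 and −0.80 without WT_tumor replicate 1. Only 11 of the 22 listed neutrophil genes passed the filter. The 3 WT_tumor livers alone can meet that filter, which can favour a negative fold change. The list was at −1.77, −1.02 and 1.32 in KO_tumor livers and 3.28, 2.42 and 2.28 in WT_tumor livers. The summed level of 10 neutrophil markers, 4 of them tested, was 105 to 339 in KO_tumor livers and 350.3 to 726 in WT_tumor livers. Erythroid genes, of which 18 of 27 listed passed the same filter, had a median of −0.57, but 0.30 without and −1.28 with a tumour. It was −0.37 without KO_tumor replicate 2 and −0.24 without WT_tumor replicate 1. Stellate cell, fibroblast and matrix genes had a median of −0.05 and sinusoidal endothelium markers −0.08, over −0.14 (without WT_no_tumor replicate 2) to −0.02 (without KO_tumor replicate 2) and −0.09 (without KO_no_tumor replicate 2) to 0.04 (without KO_no_tumor replicate 3) with single libraries left out. Cholangiocyte markers had a median of −0.40 over 6 genes, mammary epithelium and tumour markers −0.08 over 9 and adipocyte markers 0.55 over 3. The ranges with single libraries left out were −0.47 (without WT_tumor replicate 1) to −0.13 (without KO_tumor replicate 1), −0.34 (without KO_tumor replicate 1) to 0.02 (without KO_tumor replicate 3) and −0.21 (without WT_tumor replicate 2) to 1.26 (without KO_no_tumor replicate 3), in that order. The median of 23 hepatocyte core genes was 0.14, and there were without both libraries 12 of 23 positive, a median of 0.01 and 4 higher under the unadjusted p. In it were the asialoglycoprotein receptor gene Asgr1 (0.36 ± 0.12) and the transcription factor gene Cebpa (0.66 ± 0.24), which were among the 4 under the unadjusted p.

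Secreted liver proteins did not lean 1 way. Acute phase genes had 14 of 35 positive with a median of −0.21, but 0.28 without and −0.58 with a tumour. It was −0.06 without KO_tumor replicate 2 and −0.11 without WT_tumor replicate 1, and there were without both libraries 10 of 35 positive, a median of −0.31 and 1 higher and 4 lower under the unadjusted p. Saa1, serum amyloid A, had 54.8, 56.4 and 439 in KO_no_tumor livers and 11.3, 12.6 and 34.1 in WT_no_tumor livers, and 19.7, 116 and 205 in KO_tumor livers and 3981, 359 and 1147 in WT_tumor livers. Its KO livers were all above WT livers without a tumour and all below them with one, so that the additive fold change of −0.63 ± 1.10 (limma adjusted p = 0.838) describes neither state. Complement genes had 22 of 28 positive with a median of 0.14, or without both libraries 13 of 28 positive, a median of −0.02 and 2 higher and 0 lower under the unadjusted p. The list median was 0.03 without KO_no_tumor replicate 3, 0.07 without KO_tumor replicate 1, 0.27 without KO_tumor replicate 2 and 0.09 without WT_tumor replicate 3. C8g was at 0.73 ± 0.23. Coagulation genes had 13 of 31 positive with a median of −0.07, but 0.17 without and −0.21 with a tumour, and single libraries left out moved it over −0.10 (without KO_tumor replicate 3) to 0.06 (without KO_tumor replicate 2). In this list 3 members were higher and 1 was lower under the unadjusted p. Serpinc1, which encodes antithrombin, was among the higher at 0.55 ± 0.18, and the lower was Pros1 at −0.32 ± 0.15.

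**Figure D5:**
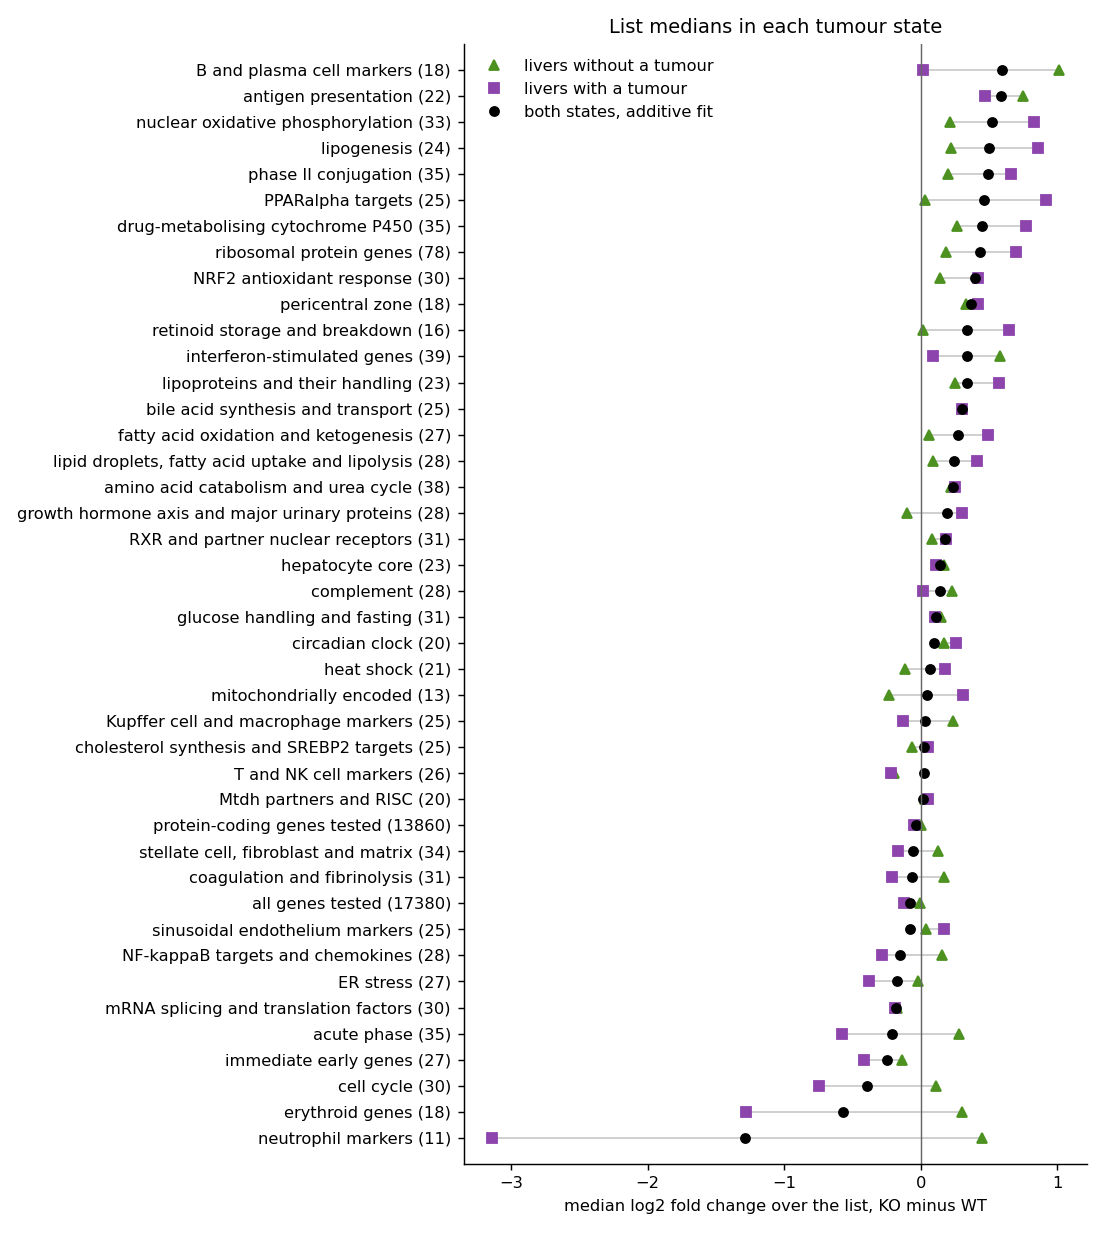
Median log2 fold change (KO minus WT) of each list with at least 10 tested members, without a tumour (green triangles), with a tumour (purple squares) and in the additive fit over both states (black circles), with the number of tested members in parentheses. Bile acid, pericentral, amino acid and splicing lists have alike medians in both states, whereas other lists, such as neutrophil, erythroid, acute phase, cell cycle, NF-κB and growth hormone genes, change sign between them.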

How the data were processed

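Total RNA of 12 livers went into sequencing libraries after removal of ribosomal RNA, as the labels state. The authors deposited a normalized signal per gene and library, which the table's name credits to DESeq2, that is, reads over a size factor. STAR 2.7.8a, Partek and DESeq2, with build mm39, are named per the submitters' processing notes. The counting program, its use of strand, the annotation and any filter are not given in the sources used, so overlapping, antisense and near-identical genes cannot be told apart. Of 12 value columns 0 were left unmatched. The table's stop coordinate is 1 past the end, as 31 of 31 mitochondrial genes showed, and was reduced by 1.

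The value of 1 read was the commonest low value in each library. Of values up to 20 reads 78.05% to 84.9% were whole multiples of it within 0.01, so too many values were fractional for a test on reads. Depths are column totals divided by that value.

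The 17380 of 22557 genes that reached 10 in 3 or more libraries entered limma 3.58.1 (R 4.3.3; lmFit, then eBayes with a trend) as log2(value + 1). The model had genotype and tumour state as additive terms and 9 residual degrees of freedom, and a second fit added their interaction. P-values were two-sided, adjusted by Benjamini-Hochberg over all genes, with a threshold of 0.05. Fold changes in each tumour state came from a fit with 4 group means. The fit was tested on simulated data. Transcript lengths and sequences came from GENCODE M21 (GRCm38), in which 98.9% of tested genes had a length. Figures were drawn with matplotlib 3.10.9 in Python 3.11.15.

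Named genes were Mtdh, 9 genes of RXR, lipid, T cell and partner biology, all called genes, enough uncalled genes to make 12 in each direction, by smallest unadjusted p, with a mean of at least 50, an annotated name and no overlap in either state, up to 2 members under an unadjusted p of 0.05 of each list, and such genes within 2 Mb of Mtdh. A gene that this rule names is not reported here. The comparison and the 43 gene lists were chosen with earlier results of these data known, 1018 of 1051 listed symbols were in the table, and the ribosomal protein list was added after its values were seen. Tried as alternatives were a pseudocount of 10, all genes unfiltered, 2 rescalings, 4 group means, robust eBayes, library weights, a replicate block, protein-coding genes alone, and leaving out each library or both that stood apart.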

Additional observations from a re-analysis of the deposited data

Results flagged for a closer look

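Saa1 moved in opposite directions in the 2 tumour states: each KO liver was above each WT liver without a tumour and below each WT liver with one. The KO minus WT difference with a tumour minus that without was −6.53 on the log2 scale. The interaction fit gave an unadjusted p of 0.000458 and a limma adjusted p of 0.796, so it did not pass the threshold.

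For each named gene and list, a single library far from the other 5 of its genotype was sought over both tumour states, by the gap to its nearest neighbour as a share of the genotype's range, against Dixon's 95% critical value. Of 296 genotype groups 20 had one, and chance alone gives about 1 in 20. The gaps of 19 of them are given as shares of the range. WT_no_tumor replicate 1 was the lowest for Cd8a (0.750) and Gm48961 (0.674). KO_tumor replicate 1 was the highest for Snd1 (0.741), Ndufa8 (0.877), Nags (0.772), Pecam1 (0.672) and retinoid storage and breakdown (0.640). KO_no_tumor replicate 1 was the lowest for Aph1b (0.641). KO_no_tumor replicate 3 was the lowest for Prickle2 (0.755). KO_tumor replicate 1 was the lowest for Ccdc43 (0.679) and pericentral zone (0.639). WT_tumor replicate 2 was the lowest for Ccdc43 (0.639). WT_no_tumor replicate 2 was the lowest for Idi1 (0.633) and Ifi35 (0.656). KO_tumor replicate 3 was the highest for Prtn3 (0.810). KO_no_tumor replicate 3 was the highest for fatty acid oxidation and ketogenesis (0.725) and interferon-stimulated genes (0.732). WT_tumor replicate 1 was the highest for glucose handling and fasting (0.739). WT_tumor replicate 2 was the highest for ribosomal protein genes (0.632). KO_tumor replicate 1, the shallowest library, was named in 7 of the 20. Since the genotype groups hold both tumour states, a gap can also follow the tumour.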

How the results depend on the processing

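Mtdh fell under all 22 alternatives, with fold changes of −3.54 to −3.07 (−3.45 to −3.07 with a library left out) and limma adjusted p of 1.73e-09 to 0.000159. Rpl31-ps8 was called under every alternative that tested it, with limma adjusted p of 2.91e-05 to 0.0117. The gene count higher in KO was 0 with protein-coding genes alone, which leaves out Rpl31-ps8, and otherwise 1. The count lower in KO was 2 with a pseudocount of 10 and 2 with library weights, in each case with 9930017N22Rik added, and 1 to 2 with a library left out. The interaction called 1 gene with library weights and 0 to 1 with a library left out.

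At an unadjusted p under 0.05, leaving out a library gave 516 to 958 genes higher and 500 to 1079 lower in KO, and 527 to 1406 for the interaction, which had 1766 with library weights. The lowest counts came without WT_tumor replicate 1 (532 higher, 500 lower) or WT_tumor replicate 3 (516 higher, 514 lower). Of 2283 values of other named genes, 2280 kept their side of the threshold, the other 3 being those of 9930017N22Rik. Of 946 list medians 5 moved by more than the spread between replicates. The median of all genes was −0.0073 with quantile normalization, −0.12 when totals were made equal and 0.0002 without both libraries that stood apart.

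The labels number replicates 1 to 3 in each group but describe different mice. Deviations of same-numbered KO and WT libraries correlated at −0.09 to 0.03, so no pairing was read from them. With the replicate block the calls were 1 higher and 1 lower, Mtdh was at −3.22, and the interaction called 0 genes. There were 6 livers a genotype, and the median SE was 0.35. Even Car13 at −2.70 ± 0.63 and 9930017N22Rik at −4.66 ± 0.74 did not pass the threshold in the main fit. Shared differences of such a size or smaller can therefore have been missed.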

Other observations

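Genes outside the protein-coding class leaned the other way from the metabolic lists. Long noncoding RNAs had 30.9% of 1464 tested genes positive in KO and a median of −0.41, and transcripts of the TEC class 21.5% of 1212 with −0.62, against 46.8% of 13860 protein-coding genes with −0.03. Their tested members are low, with median levels of 22.4 and 26.7 against 302. Without both KO libraries that stood apart, the medians were −0.03, −0.11 and 0.01, and 48.4%, 42.9% and 50.7% were positive. Small nuclear RNAs had a median of 1.74 without and −0.90 with a tumour over 33 genes, and small nucleolar RNAs 0.36 and −0.90 over 217. KO_no_tumor replicate 3 had the highest shares of its signal in these classes, 5.32% and 4.84%. KO_tumor replicate 1 had the lowest, 0.374% and 0.259%. In the additive fit the medians were 0.50 and −0.27, or 0.71 and −0.19 without both libraries.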
